A study of Homo sapiens with 12 samples.

Results

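Autophagy and lysosome genes were examined in RKO, A549 and H460 cells under normoxia and hypoxia. The 80 genes, of 25369 in the count table, were chosen by a rule on gene symbols. They comprised 33 genes of the autophagy core (the ATG, ULK, WIPI, GABARAP and MAP1LC3 genes and BECN1), 15 cathepsins and 22 subunits of the vacuolar proton pump. The rest were 3 LAMP membrane proteins, the cargo receptors SQSTM1 and NBR1, the transcription factors TFEB and TFE3, and 3 genes that carry a pump symbol without being a subunit. Those 3 are the pseudogene ATP6V0CP3, the antisense RNA gene ATP6V0E2-AS1 and the read-through gene ATP6V1G2-DDX39B.

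Steady-state poly(A)+ RNA was sequenced from 12 libraries, 2 independent replicates for each of 6 groups. RKO is a colon carcinoma line, A549 a lung adenocarcinoma line and H460 a large cell lung carcinoma line. The hypoxia group of each line was held at 1% O2 for 24 h, and the normoxia group was kept under the routine culture atmosphere. RKO and A549 cells were cultured in DMEM and H460 cells in RPMI, so a difference between H460 and the other lines cannot be told apart from one between media. The labels name no deleted gene or transgene in any group, and each line stands for a single tumour. Summed counts ran from 27350424 to 41757584 per library. KRT18, a keratin of simple epithelia, was expressed in each line, from 57.4 to 820 normalised RPKM over the libraries, and the colon factor CDX2 was at 3.97 to 6.58 in RKO and at most 0.0372 elsewhere. Several other defining markers were absent or low: CDX1 and VIL1 were at 0 in RKO, CDH17 reached 0.0130 there, and SFTPB and SFTPC did not exceed 0.0625 in either lung line. The lung genes NAPSA and NKX2-1 gave a mixed picture, with NAPSA at 2.37 to 3.50 in A549 and 0.304 to 0.519 in H460, and NKX2-1 at up to 0.0775 in A549 and 1.45 in H460. The epithelial genes EPCAM and CDH1 were at most 0.289 in H460, and CDH1 did not exceed 0.0221 in RKO. The epithelial keratin KRT8 was at 236 to 342 in H460, 618 to 791 in A549 and 3.55 to 5.74 in RKO. Of the mesenchymal genes PDGFRB and COL1A2, the former was at 1.68 to 2.83 in H460 and the latter at most 0.0130 there. Normalised RPKM is the count per kilobase of gene and per unit of library size, in the usual RPKM scale, after TMM scaling over all libraries. Leukocyte and endothelial genes (PTPRC, CD3E, PECAM1, CDH5) stayed at or below 0.0480 in every library. CA9, NDRG1, VEGFA and SLC2A1, established targets of hypoxia signalling, all rose in each line.

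Macroautophagy delivers cytoplasm to the lysosome. The ULK kinase complex starts it, a phosphatidylinositol 3-kinase complex with BECN1 marks the membrane, WIPI proteins read that mark, and ATG2 and ATG9 proteins supply lipid to the growing membrane. Conjugation enzymes then attach the small ATG8 proteins (the GABARAP and LC3 families) to it, and cargo receptors such as SQSTM1 and NBR1 bind them. In the lysosome, cathepsins digest the delivered protein at the acid pH that the vacuolar proton pump maintains. Its V0 sector forms the membrane pore and its V1 sector hydrolyses ATP. TFEB and TFE3 activate many lysosome genes through a promoter element built around an E-box. Hypoxia-inducible factors bind a short core, ACGTG or GCGTG.

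Promoter sequence was taken from RefSeq (build GRCh38.p14) as the 250 bases before the annotated start, which was held for 61 of the 80 members. The 4 promoters below are shown because WIPI1, GABARAPL1 and GABARAPL2 rose under hypoxia in at least 1 line and ATP6V0A2 had the greatest fall of any called pump subunit. They lie at chr17:68457497-68457746 on the minus strand, chr12:10212627-10212876 on the plus strand, chr16:75566129-75566378 on the plus strand and chr12:123712103-123712352 on the plus strand, respectively. Each is written 5′ to 3′ along its gene, and capitals mark ACGTG or GCGTG on either strand (CACGT is ACGTG read on the opposite strand).
WIPI1: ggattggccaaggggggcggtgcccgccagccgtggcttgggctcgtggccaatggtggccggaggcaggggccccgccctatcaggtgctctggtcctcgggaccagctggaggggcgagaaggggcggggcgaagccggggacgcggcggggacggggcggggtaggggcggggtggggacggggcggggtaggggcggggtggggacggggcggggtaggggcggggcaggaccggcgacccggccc
GABARAPL1: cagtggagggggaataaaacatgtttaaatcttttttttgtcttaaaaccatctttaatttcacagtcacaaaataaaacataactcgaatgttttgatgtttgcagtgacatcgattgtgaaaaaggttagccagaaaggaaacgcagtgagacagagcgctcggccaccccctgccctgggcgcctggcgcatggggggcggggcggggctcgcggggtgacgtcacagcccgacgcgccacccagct
GABARAPL2: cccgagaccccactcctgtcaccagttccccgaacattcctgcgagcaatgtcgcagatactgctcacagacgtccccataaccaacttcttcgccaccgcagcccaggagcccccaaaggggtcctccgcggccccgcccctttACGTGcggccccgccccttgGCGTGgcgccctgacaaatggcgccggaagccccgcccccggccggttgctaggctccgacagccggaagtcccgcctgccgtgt
ATP6V0A2: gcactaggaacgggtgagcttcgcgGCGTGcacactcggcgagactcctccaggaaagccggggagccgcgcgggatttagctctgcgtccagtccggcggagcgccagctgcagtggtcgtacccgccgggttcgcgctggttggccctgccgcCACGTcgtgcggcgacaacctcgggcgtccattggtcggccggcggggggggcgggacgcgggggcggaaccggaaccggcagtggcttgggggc
The promoters of WIPI1 and GABARAPL1 held neither core in this window. GABARAPL2 held 1 of each, 105 and 85 bases before the start, and so did ATP6V0A2, 95 and 225 bases before it. Both kinds of core are common: ACGTG was found in 21.7% of 27305 genes with a promoter and in 23 of the 61 members, and GCGTG in 36.2% and in 31 members. A match describes letters, not binding.

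The E-box CACGTG, which contains ACGTG on both strands, was found in 7.73% of all genes with a promoter and in 11 of the 61 members. The longer TCACGTGA, the centre of the element bound by TFEB and itself holding CACGTG, was found in 1.04% of all genes with a promoter and in 4 members. The stretches around those 4 matches are shown because each gene encodes a lysosome component, with the match in capitals. They lie at chr20:45891294-45891331 on the plus strand, chr13:113297195-113297232 on the plus strand, chr16:67481195-67481232 on the minus strand and chr9:114587695-114587732 on the plus strand.
CTSA: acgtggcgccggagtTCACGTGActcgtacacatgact
LAMP1: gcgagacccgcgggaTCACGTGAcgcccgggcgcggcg
ATP6V0D1: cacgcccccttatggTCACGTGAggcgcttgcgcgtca
ATP6V1G1: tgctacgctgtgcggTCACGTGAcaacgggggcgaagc
The match began 26 bases before the start in CTSA, 29 in LAMP1, 60 in ATP6V0D1 and 59 in ATP6V1G1. CTSA rose in H460, and LAMP1, ATP6V0D1 and ATP6V1G1 were called in no line. The holders of TCACGTGA therefore included 1 of the 10 cathepsins, 2 of the 15 pump genes and 0 of the 29 autophagy core genes that had a promoter.

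The first comparison asks which of these genes changed under hypoxia within each line. A gene was called when its adjusted p in edgeR was under 0.1 and its fold change over 1.5, and 72 members passed the filter on low counts in at least 1 line. In RKO, 14 of 64 tested members were higher and 3 lower, against 18.8% and 15.1% of all genes tested. In A549, 1 of 68 was higher and 0 lower, against 2.22% and 0.456% (edgeR gave 4 higher and 6 lower at an unadjusted p under 0.05, and DESeq2 called 2 higher and 3 lower). In H460, 16 of 67 were higher and 8 lower, against 24.6% and 27.3%. Of these, ATG9B in RKO and ATP6V0A4 in H460 passed the filter on low counts only through the condition in which they were high, so a difference was built into their passing; without them the counts were 13 higher of 63 in RKO and 7 lower of 66 in H460. The share of members called higher was near the background in each line, and the share called lower was below it in RKO and H460. In H460 the direction depended on scaling: with library size alone in place of TMM factors, the median log2 fold change of all genes fell by 0.35 there. Under that scaling 4 members were higher and 14 lower, beside 2075 higher and 5756 lower of 14080 genes tested.

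With only 1 member called in A549, no member was called in the same direction in all 3 lines. No member was called in opposite directions in different lines. Of the members tested, 36 were called in no line. The 25 members called higher somewhere included 6 called higher in exactly 2 lines. GABARAPL1, ULK1, WIPI1, NBR1 and CTSB were higher in RKO and H460, and ATG16L2 was higher in RKO and A549. The 5 shared by RKO and H460 stand beside 14 members higher in RKO and 16 in H460. Over all genes, 1067 were higher in both, 44.2% of those higher in RKO and 30.8% of those in H460. All 11 members called lower were so in a single line.

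By class, and beside the 18.8% higher and 15.1% lower of all genes, 9 of 31 autophagy core genes were higher and 2 lower in RKO (29% and 6.45%; 8 of 30 higher without ATG9B), 2 of 10 cathepsins were higher and 1 lower, and 0 of 16 pump subunits were called in either direction (2 were higher and 1 lower at an unadjusted p under 0.05 in edgeR, and DESeq2 called 0). In H460, 8 of 29 autophagy core genes were higher and 1 lower (27.6% and 3.45%, beside 24.6% and 27.3% of all genes), 4 of 11 cathepsins were higher and 1 lower (36.4% and 9.09%), and 2 of 20 pump subunits were higher and 5 lower (10% and 25%). In A549 the 1 called gene belonged to the autophagy core, and 0 of 12 cathepsins and 0 of 19 pump subunits were called by edgeR. At an unadjusted p under 0.05, 1 cathepsin and 1 pump subunit were higher and 1 of each was lower there, and DESeq2 called 1 cathepsin and 0 pump subunits, the cathepsin lower. With no minimum fold change, 2 of 16 pump subunits were higher and 1 lower in RKO, beside 3082 higher and 2938 lower of 12817 genes tested. The median log2 fold change of the tested autophagy core was 0.26 in RKO, 0.40 for H460 and 0.02 for A549, against 0.01, -0.04 and -0.01 for all genes tested. With library size alone the H460 core split changed from 8 higher and 1 lower to 4 higher and 5 lower, the cathepsins to 0 higher and 1 lower and the pump to 0 higher and 7 lower. Of all 14080 genes tested, 2075 were higher and 5756 lower under that scaling. No test of one class against another was made.

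**Figure D1:**
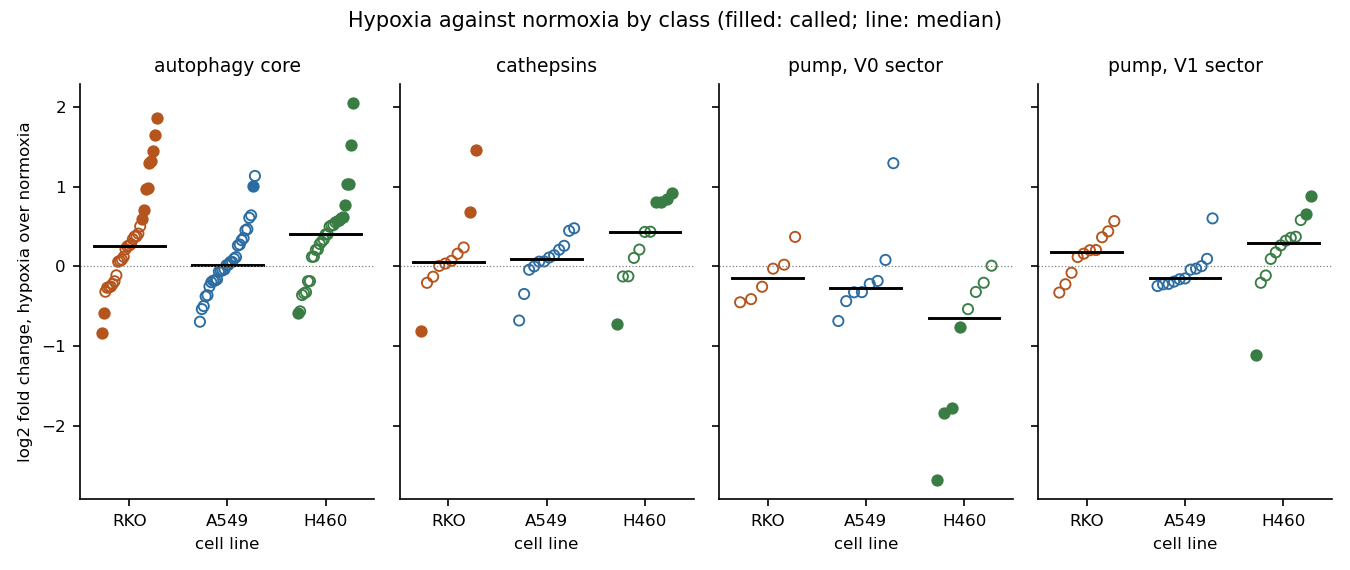
Log2 fold change of each tested member, hypoxia over normoxia, by cell line for the autophagy core, the cathepsins and the V0 and V1 sectors of the proton pump; filled points were called and black lines are medians. The autophagy core medians sit at 0.26 in RKO and 0.40 in H460 and near 0 in A549, and the called V0 subunits of H460 all lie below 0.

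Values below are normalised RPKM, given for replicates 1 and 2 in that order. Fold changes come from the fit of each line alone.

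The initiation kinases changed unequally. ULK1, the kinase that starts autophagosome formation, went from 6.30 and 8.86 in RKO normoxia to 17 and 14.3 in hypoxia, and from 84.5 and 93.4 to 144 and 131 in H460. Neither pair of groups overlapped. The fold change was 1.98 in RKO (log2 0.98, SE 0.19, adjusted p = 0.00267) and 1.53 in H460 (log2 0.61, SE 0.10, adjusted p = 0.000129). The H460 call lies near the fold limit, and it was lost without normoxia replicate 1 (log2 0.51) or hypoxia replicate 1 (0.57), in the joint fit and under library size alone. In A549, ULK1 was at 26.9 and 65.1 in normoxia and at 38.0 and 78.1 in hypoxia. The groups overlapped, since replicate 2 exceeded replicate 1 by 2.42-fold in normoxia and 2.06-fold in hypoxia. ULK1 was not called there (log2 0.33, SE 0.41, adjusted p = 0.730), although it was without hypoxia replicate 1 (log2 0.76).

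ULK3, a related kinase, rose in RKO from 20.3 and 25.8 to 34.6 and 37.9 (log2 0.59, SE 0.17, adjusted p = 0.0167), a call lost in DESeq2 and without normoxia replicate 1 (log2 0.43) or hypoxia replicate 2 (0.53). In A549 it stood at 24.4 and 25.9 in normoxia and at 16.5 and 14.7 in hypoxia, with no overlap. That difference missed the threshold (log2 -0.69, adjusted p = 0.106) and passed it with the replicate number as a block (log2 -0.70, adjusted p = 0.000911), in DESeq2, in the joint fit, without a filter on low counts or without hypoxia replicate 1 (-0.78). The hypoxia effect on ULK3 differed between RKO and A549 by 1.34 on the log2 scale (SE 0.21, adjusted p = 0.00229). ULK2 fell in H460 from 4.34 and 5.23 to 3.12 and 3.30 (log2 -0.59, SE 0.11, adjusted p = 0.000453). Its fold change was just past the limit, and the call was lost with the replicate block, in DESeq2, in the joint fit, with no filter or RLE factors, without normoxia replicate 2 (log2 -0.48) or without hypoxia replicate 1 (-0.52). ULK4 and ATG13, the latter an adaptor of the ULK complex, were called in no line. ATG13 had log2 fold changes of 0.26 in RKO, 0.06 in A549 and 0.41 in H460. ULK4 was at 0.455 to 1.54 normalised RPKM over all libraries, and in H460 its log2 fold change of -0.56 became a call without normoxia replicate 1 (-0.81), without hypoxia replicate 2 (-0.94) or under library size alone (-0.91). ATG101, the partner of ATG13, fell in RKO from 38.7 and 30.5 to 25.5 and 22.6 (log2 -0.59, SE 0.17, adjusted p = 0.0219). This call was lost with the replicate block, in the joint fit, under library size alone, without normoxia replicate 1 (log2 -0.41) or without hypoxia replicate 2 (-0.50).

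WIPI1, which binds the phosphoinositide mark on the forming membrane (chr17:66417422-66453653, minus strand, GRCh37), had the greatest rise of any called member in H460. It went from 6.73 and 6.20 to 29.6 and 24.4 there, from 7.05 and 5.48 to 20.9 and 14.9 in RKO, and from 3.71 and 5.00 to 7.55 and 11.7 in A549. Hypoxia exceeded normoxia in every library of each line. The fold change was 4.15 in H460 (log2 2.05, SE 0.12, adjusted p = 3.26e-08), 2.74 in RKO (log2 1.45, SE 0.22, adjusted p = 0.000690) and 2.20 in A549 (log2 1.14, SE 0.28, adjusted p = 0.104). The A549 value missed the threshold in the main edgeR fit and passed it with the replicate block (log2 1.12, adjusted p = 0.000172). It also passed in DESeq2, in the joint fit, with no filter on low counts and without normoxia replicate 2 (log2 1.36) or hypoxia replicate 1 (1.42). WIPI2 and BECN1 were called in no line, with log2 fold changes of 0.22, 0.06 and 0.52 for WIPI2 and -0.27, -0.25 and -0.34 for BECN1 in RKO, A549 and H460.

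Of the lipid suppliers, ATG9A, a membrane scramblase, rose in H460 from 19.8 and 15.5 to 38.7 and 34.4 (2.06-fold, log2 1.04, SE 0.12, adjusted p = 7.14e-06). Its log2 fold change was 0.09 in RKO and 0.12 in A549, and the effect differed between A549 and H460 (log2 difference -0.93, adjusted p = 0.00780). ATG2A, a lipid transfer protein, rose in RKO (log2 0.71). ATG9B was also called higher in RKO, on few reads: 3 and 10 counts in normoxia against 23 and 27 in hypoxia. No normoxia library of RKO reached the filter for ATG9B, so this call is a description. ATG2B was called in no line.

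The conjugation genes included the member called in both RKO and A549. ATG16L2, a relative of the ATG16L1 scaffold that directs ATG8 lipidation, went from 14.4 and 17.5 to 44.1 and 39.3 in RKO, from 6.15 and 7.18 to 10.9 and 16.1 in A549, and from 9.22 and 10.6 to 15.2 and 13.5 in H460. The groups did not overlap in any line. The fold change was 2.51 in RKO (log2 1.33, SE 0.16, adjusted p = 0.000298) and 2.02 in A549 (log2 1.01, SE 0.24, adjusted p = 0.0940). The A549 call was lost under library size alone and without normoxia replicate 1 (log2 0.91) or hypoxia replicate 2 (0.70). In H460 the fold change of 1.43 was under the limit of 1.5, although its adjusted p was 0.00136, and it passed without normoxia replicate 2 (log2 0.59) or hypoxia replicate 2 (0.62). ATG3, the enzyme that transfers ATG8 to lipid, fell in RKO from 22.7 and 18.4 to 13 and 11.1 (log2 -0.84, SE 0.17, adjusted p = 0.00368). ATG12 rose in H460 (log2 0.59, adjusted p = 0.000119), and so did the ATG8 protease ATG4D (log2 0.62, adjusted p = 0.000570), both calls being lost under library size alone. ATG5, ATG7, ATG10, ATG14, ATG16L1, ATG4A, ATG4B and ATG4C were called in no line.

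**Figure D2:**
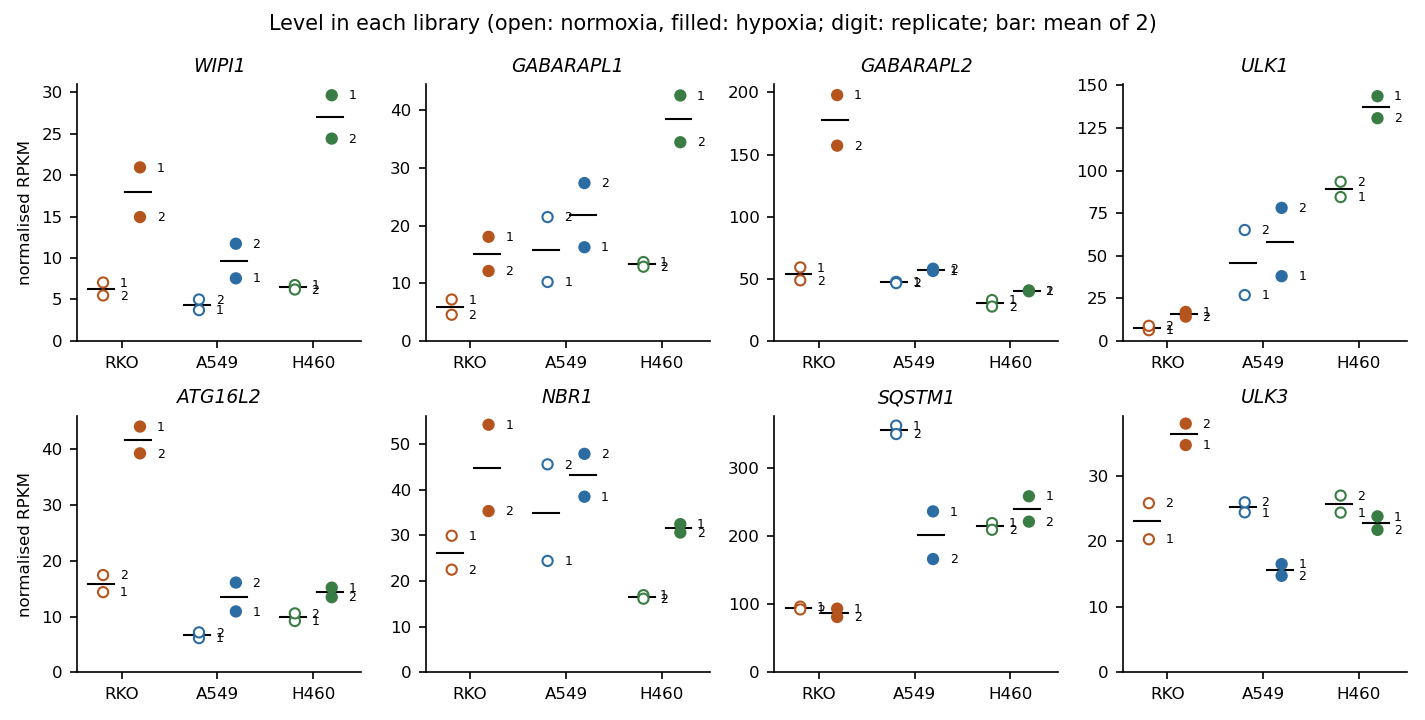
Normalised RPKM of 8 autophagy genes in each library, by cell line; open points are normoxia, filled points hypoxia, digits the replicate and bars the mean of 2. WIPI1 and ATG16L2 are higher in hypoxia in every line without overlap, and for ULK1 in A549 the pairs of replicates differ more than the oxygen conditions.

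Among the ATG8 proteins, which coat the forming membrane, GABARAPL2 was called in RKO, MAP1LC3B and GABARAP in H460, and GABARAPL1 in both. GABARAPL2 (chr16:75600249-75611779, plus strand, GRCh37) went from 59.2 and 48.8 to 198 and 157 in RKO, from 47.5 and 46.5 to 56.3 and 58.1 in A549, and from 32.9 and 27.7 to 40.7 and 39.9 in H460. RKO hypoxia stood far above every other library. The fold change was 3.15 in RKO (log2 1.65, SE 0.17, adjusted p = 0.000132) against 1.21 in A549 and 1.32 in H460, neither of which was called. The effect in RKO exceeded that in A549 by 1.43 on the log2 scale (adjusted p = 0.00197) and that in H460 by 1.30 (adjusted p = 0.000640).

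MAP1LC3B, the LC3 protein used most often as a marker of autophagosomes, rose in H460 from 29.9 and 26.6 to 59.5 and 56.8 (2.04-fold, log2 1.03, SE 0.09, adjusted p = 1.02e-06). It was at 76.8 and 62.1 in RKO normoxia and at 109 and 79.9 in RKO hypoxia, and was not called there (log2 0.38, adjusted p = 0.124). The H460 effect exceeded that of RKO (log2 difference -0.61 as RKO minus H460, adjusted p = 0.0914) and that of A549 (-0.94, adjusted p = 0.0160). GABARAP rose in H460 from 108 and 95.9 to 188 and 164 (log2 0.78, SE 0.10, adjusted p = 1.85e-05) and had log2 fold changes of 0.25 in RKO and 0.26 in A549. That GABARAP call was lost under library size alone.

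GABARAPL1 rose in both RKO and H460. It went from 7.18 and 4.54 to 18 and 12.1 in RKO (log2 1.30, SE 0.26, adjusted p = 0.00307) and from 13.7 and 12.9 to 42.5 and 34.4 in H460 (log2 1.53, SE 0.11, adjusted p = 2.19e-07). In A549 it was at 10.2 and 21.5 in normoxia and at 16.2 and 27.4 in hypoxia. The A549 groups overlapped and the gene was not called (log2 0.46, SE 0.35, adjusted p = 0.555), but it was without hypoxia replicate 1 (log2 0.78). The near-identical copy GABARAPL3 had at most 1 count in any library. MAP1LC3C rose in RKO on low levels, from 59 and 44 counts to 106 and 107 (log2 0.97, adjusted p = 0.0433), and the call was lost without normoxia replicate 2 (log2 0.74). MAP1LC3A was highest in A549, at 5.09 and 7.09 in normoxia and 8.10 and 10.6 in hypoxia, against at most 0.0695 in RKO and 0.440 in H460. It was called higher in A549 only with the replicate block (log2 0.62, adjusted p = 0.0461). MAP1LC3B2, whose reads cannot be separated fully from those of MAP1LC3B, was at 1.56 to 2.41 in RKO and at most 0.252 in the other lines.

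Summed over the family, ATG8 transcripts stood at 278 and 231 normalised RPKM in RKO normoxia and at 501 and 386 in hypoxia. In H460 the sums were 185 and 164 in normoxia and 331 and 296 in hypoxia, and in A549 they were 277 and 320 in normoxia and 337 and 384 in hypoxia. The sums did not overlap between conditions in any line. GABARAPL2 made up 21.3% and 21.1% of the RKO sum in normoxia and 39.5% and 40.7% in hypoxia. The share of GABARAP in that sum was 47.4% and 48.9% in normoxia and 34.3% and 34.3% in hypoxia, where its level was 132 and 113 against 172 and 133. In H460 the share of GABARAPL2 was 17.7% and 16.9% in normoxia and lower in hypoxia, at 12.3% and 13.5%, and in A549 it stayed between 14.5% and 17.1%. These sums and shares were not tested.

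**Figure D3:**
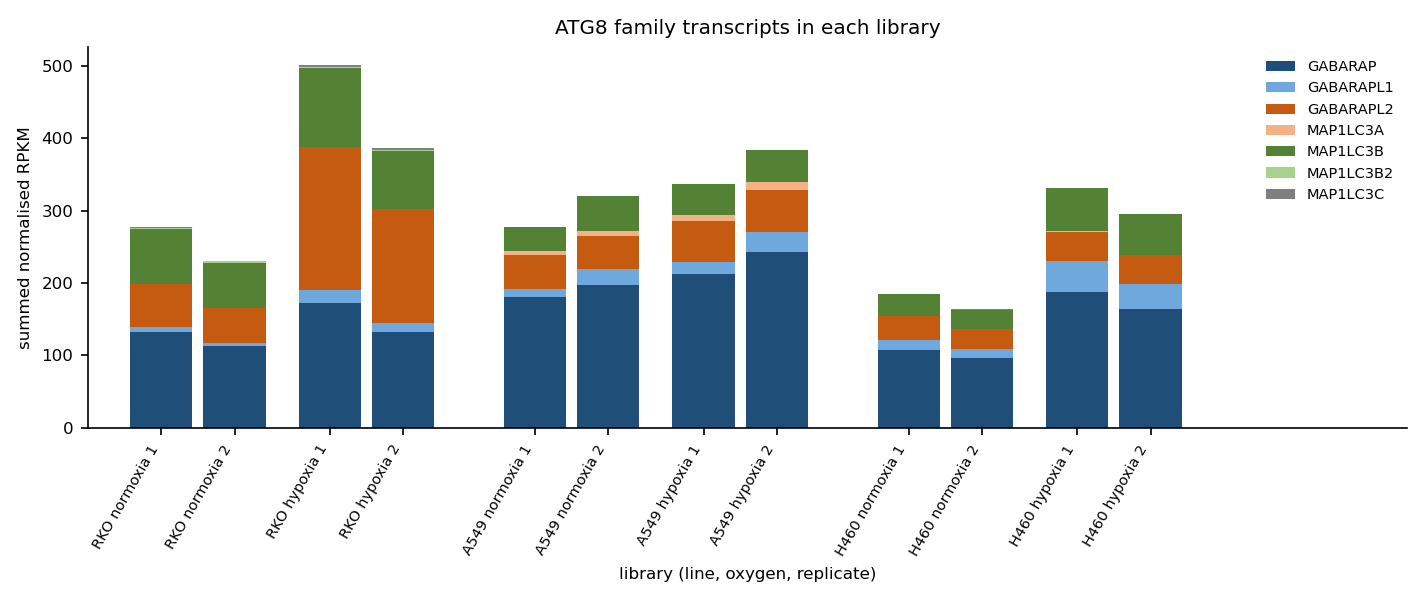
Summed normalised RPKM of the 7 measured ATG8 family genes in each library, with each gene as a coloured part of the bar. GABARAPL2 takes 39.5% and 40.7% of the total in RKO hypoxia, and GABARAP is the largest part in every library but those.

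Of the cargo receptors, NBR1 rose in RKO from 29.9 and 22.5 to 54.2 and 35.3 (log2 0.71, SE 0.21, adjusted p = 0.0224) and in H460 from 16.9 and 16.1 to 32.5 and 30.6 (log2 0.92, SE 0.09, adjusted p = 1.47e-06). The RKO call was lost without normoxia replicate 2 (log2 0.52) or hypoxia replicate 1 (0.43), and the H460 call under library size alone. In A549, NBR1 was at 24.4 and 45.6 in normoxia and at 38.5 and 47.9 in hypoxia, with overlap (adjusted p = 0.629). SQSTM1, the p62 receptor that is itself degraded by autophagy, was not called in any line in the main edgeR fit. In A549 it stood at 361 and 349 in normoxia and at 236 and 166 in hypoxia, with no overlap. That difference missed the threshold (log2 -0.83, SE 0.21, adjusted p = 0.104) and passed it with the replicate block (log2 -0.85, adjusted p = 5.69e-05), in DESeq2, in the joint fit, with no filter on low counts and without hypoxia replicate 1 (log2 -1.11). SQSTM1 was at 96.4 and 92.2 against 93.4 and 81.2 in RKO, and at 219 and 209 against 258 and 221 in H460. The SQSTM1 effect in A549 lay below that in H460 (log2 difference -0.99 as A549 minus H460, adjusted p = 0.00685) and below that in RKO (0.70 as RKO minus A549, adjusted p = 0.0756).

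Of the transcription factors, TFEB was called in 1 line and TFE3 in none. TFEB rose in RKO from 1.45 and 1.33 to 2.34 and 2.09 (log2 0.61, SE 0.26, adjusted p = 0.0849), and this call was lost in DESeq2 and without normoxia replicate 1 (log2 0.67), normoxia replicate 2 (0.55) or hypoxia replicate 1 (0.58). In A549 it was called only without hypoxia replicate 1 (log2 0.95). TFE3 was at 20.0 and 20.8 in RKO normoxia and at 36.1 and 26.0 in hypoxia, a fold change of 1.46 that was under the limit (adjusted p = 0.0288) and passed it without hypoxia replicate 2 (log2 0.76), in the joint fit and under library size alone. RNA levels say nothing of where these proteins are in the cell, which controls their activity.

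With the replicate number as a block, A549 gave 4 members higher and 5 lower of 68, against 8.34% and 5.07% of all genes tested in that fit. ATG16L2, WIPI1, MAP1LC3A and ATP6V0A4 were higher, and ULK3, SQSTM1, CTSC, ATP6V0A2 and ATP6V0E2-AS1 were lower. ULK1 had a log2 fold change of 0.37 and an adjusted p of 0.0490 in that fit, under the fold limit. Of the 68 members, 3 were over 1.5-fold higher in replicate 2 than in replicate 1 in both conditions of A549 (4.41%), as were 2.54% of all genes tested there. Those 3 were ULK1, GABARAPL1 and ATP6V1B1. Calls in A549 also depended on which hypoxia replicate was left out, for the members and for all genes tested alike. The median log2 fold change of the autophagy core was 0.05 without hypoxia replicate 1 and -0.07 without hypoxia replicate 2. It was -0.02 for all genes tested in either fit.

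Of the cathepsins, 12 of 15 passed the filter in at least 1 line. CTSE, CTSG and CTSW, proteases of gastric or blood cells, had at most 3 counts in any library. CTSL (chr9:90340974-90346384, plus strand, GRCh37), a cysteine protease of broad use, was the most abundant cathepsin on average. It stood at 123 and 134 in RKO normoxia, at 338 and 365 in A549 normoxia and at 1401 and 1174 in H460 normoxia. Its hypoxia levels were 98.6 and 133 in RKO, then 282 and 273 for A549, and in H460 861 and 716. The groups did not overlap in A549 or H460, and CTSL was called lower in H460 alone (0.607-fold, log2 -0.72, SE 0.12, adjusted p = 0.000227), a call lost without hypoxia replicate 2 (log2 -0.57). The A549 value was a log2 change of -0.35 (adjusted p = 0.349). The RKO and H460 effects differed by 0.56 on the log2 scale (adjusted p = 0.0977). CTSL made up 62.5% and 62.9% of summed cathepsin RPKM in H460 normoxia and 45.3% and 42.6% in hypoxia.

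Other cathepsins rose in H460 while CTSL fell. CTSA, the carboxypeptidase whose promoter holds TCACGTGA, went from 72.1 and 51.4 to 121 and 97.0 (log2 0.81, SE 0.15, adjusted p = 0.000349). CTSK, best known from bone-resorbing cells, went from 3.92 and 5.27 to 9.30 and 8.35 (log2 0.92, SE 0.16, adjusted p = 0.000216), and CTSF from 7.52 and 5.23 to 11.8 and 10.6 (log2 0.81, adjusted p = 0.000661). CTSB, a cysteine protease, went from 47.7 and 39.6 to 84.7 and 73.8 (log2 0.85, SE 0.11, adjusted p = 2.23e-05). These 4 were chosen as called, so the lack of overlap between their H460 groups adds no support. All 4 calls were lost under library size alone. CTSB rose in RKO as well, from 29.6 and 29.9 to 51.8 and 47.9 (log2 0.68, SE 0.15, adjusted p = 0.00456).

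CTSV, a close relative of CTSL (chr9:99791959-99801925, minus strand, GRCh37), had the greatest change among cathepsins. It rose in RKO from 3.61 and 3.01 to 8.73 and 10.4 (2.77-fold, log2 1.47, SE 0.19, adjusted p = 0.000350). It was at 4.23 and 3.43 against 4.21 and 3.82 in A549, and at 0.866 and 0.633 against 0.633 and 0.739 in H460. The RKO effect exceeded that of A549 by 1.45 (adjusted p = 0.00762) and that of H460 by 1.64 (adjusted p = 0.00128) on the log2 scale. CTSC, which activates serine proteases of granules, fell in RKO from 20.1 and 23.2 to 10.2 and 15.4 (log2 -0.82, SE 0.20, adjusted p = 0.00994), a call lost without hypoxia replicate 1 (log2 -0.49). In A549 it was at 23.1 and 19.0 against 15.2 and 11.3, called lower only with the replicate block (log2 -0.69, adjusted p = 0.000228), in DESeq2, in the joint fit, without a filter on low counts or without hypoxia replicate 1 (log2 -0.91). CTSD, the main aspartic protease of the lysosome, ranked next to CTSL over the 12 libraries but stood below CTSB in A549 and below CTSZ in H460 under both conditions, and was called in no line, with log2 fold changes of 0.16, 0.11 and 0.21 in RKO, A549 and H460.

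**Figure D4:**
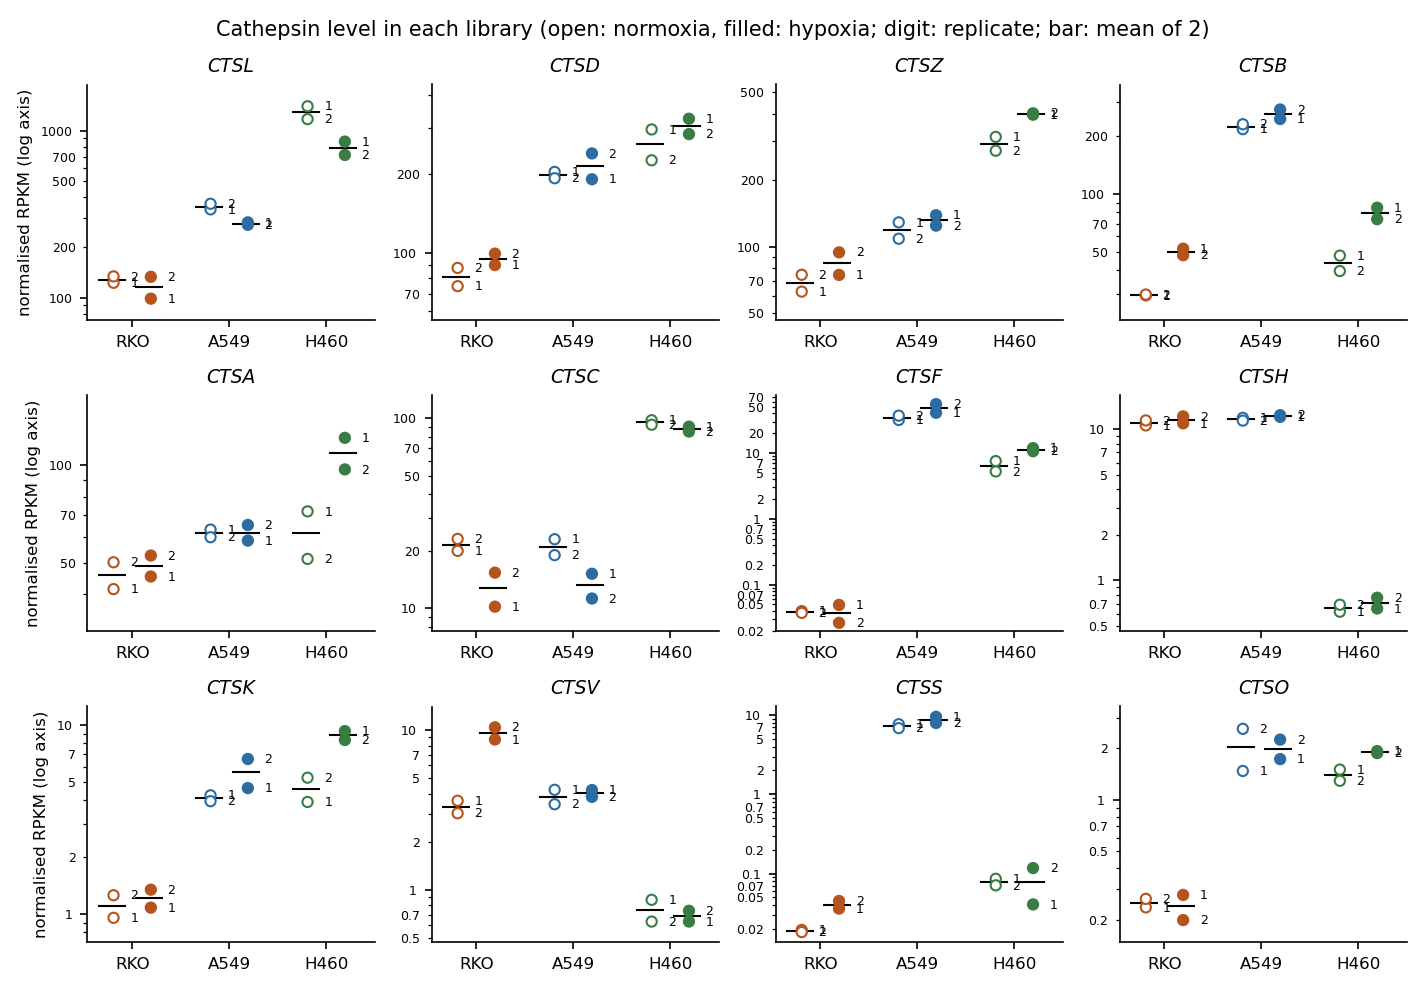
Normalised RPKM of the 12 tested cathepsins in each library on log axes, by cell line; open points are normoxia, filled points hypoxia, digits the replicate and bars the mean of 2. CTSL is highest in H460 and drops there from 1401 and 1174 to 861 and 716, and CTSV is higher in hypoxia in RKO alone.

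In H460, of 8 tested V0 subunits of the vacuolar pump, 0 were higher and 4 lower (3 of 7 lower without ATP6V0A4), and of 12 tested V1 subunits, 2 were higher and 1 lower. All genes tested there were higher in 24.6% and lower in 27.3%, and V0 was not tested against V1. The V0 median log2 fold change, with ATP6V0A4 included, was -0.65 and the V1 median 0.30, against -0.04 for all genes tested. Without ATP6V0A4 the V0 median was the -0.54 of ATP6V0C. ATP6V0A2 (chr12:124196865-124246301, plus strand, GRCh37), an isoform of the large membrane subunit a, fell from 7.28 and 7.54 to 1.127 and 1.184. That is a fold change of 0.155 (log2 -2.69, SE 0.11, adjusted p = 3.09e-09). In RKO it was at 3.62 and 4.39 against 2.61 and 3.50, and in A549 at 5.15 and 6.02 against 4.32 and 2.66. Neither was called in the main edgeR fit (log2 -0.45 and -0.69). The A549 value passed with the replicate block (log2 -0.72, adjusted p = 0.00704), in the joint fit or without hypoxia replicate 1 (-1.08). The RKO value passed without hypoxia replicate 2 (-0.68). Hypoxia was below normoxia in all libraries of each line. The effects in RKO and A549 exceeded that in H460 by 2.28 (adjusted p = 0.000175) and 2.00 (adjusted p = 0.000546) on the log2 scale. ATP6V0A2 made up 23.3% and 25.3% of the summed a subunits measured (A1, A2 and A4) in H460 normoxia and 4.44% and 5.05% in hypoxia. ATP6V0A1, the more abundant isoform, was at 23.8 and 22 against 24.2 and 22.2 there and was called in no line.

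ATP6V0E2, a small membrane subunit e, fell in H460 from 13.9 and 11.8 to 3.90 and 3.67 (0.292-fold, log2 -1.78, SE 0.12, adjusted p = 1.35e-07). It was at 22.4 and 15.1 against 16.3 and 11.6 in A549 and had 0 to 5 counts per library in RKO, where it was not tested. The A549 effect exceeded the H460 effect by 1.34 (adjusted p = 0.0131). Its other isoform, ATP6V0E1, was among the most abundant pump transcripts, at 93.1 and 87.9 against 77.8 and 68.3 in H460 (log2 -0.32), and was called in no line, although under library size alone it was called lower in H460 (log2 -0.67). ATP6V0E2 made up 13% and 11.9% of e subunit RPKM in H460 normoxia and 4.78% and 5.11% in hypoxia. The antisense gene ATP6V0E2-AS1 (chr7:149564783-149570951, minus strand, GRCh37) overlaps the start of ATP6V0E2 (chr7:149570057-149577801, plus strand), and the reads were counted by strand. It went from 216 and 216 counts in H460 normoxia to 19 and 18 in hypoxia (log2 -3.31, SE 0.25, adjusted p = 2.84e-07), the greatest fall of any called member.

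ATP6V0B, a proteolipid of the pore, fell in H460 from 105 and 88.5 to 61.0 and 54.4 (log2 -0.76, SE 0.10, adjusted p = 4.03e-05) and had log2 fold changes of -0.03 in RKO and -0.32 in A549. ATP6V0A4, the isoform a of kidney, was near the detection limit: 14 and 25 counts in H460 normoxia against 5 and 4 in hypoxia (log2 -1.85, adjusted p = 0.00636). It passed the filter in H460 through normoxia alone, so the call and the comparison of lines that uses it are descriptions. In A549 it had 30 and 30 counts in normoxia and 86 and 53 in hypoxia, called higher only with the replicate block (log2 1.29, adjusted p = 0.0130) or in the joint fit. The A549 and H460 effects on ATP6V0A4 differed by 3.14 on the log2 scale (SE 0.69, adjusted p = 0.00485). ATP6V0C, which has pseudogenes that could share its reads, and ATP6V0D1 were called in no line.

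In the V1 sector, ATP6V1B2, the common isoform of the ATP-binding subunit B, rose in H460 from 36.9 and 34.1 to 70.2 and 61.7 (1.84-fold, log2 0.88, SE 0.09, adjusted p = 4.69e-06). Its log2 fold change was 0.21 in RKO and -0.22 in A549, and the A549 and H460 effects differed by -1.10 (adjusted p = 0.00166). ATP6V1D, in the rotor stalk, rose in H460 from 17.5 and 17.2 to 29.2 and 26.1 (log2 0.66, SE 0.10, adjusted p = 6.32e-05). Under library size alone 0 pump subunits were higher in H460, so the calls of ATP6V1B2 and ATP6V1D were lost there. ATP6V1E2, a tissue-restricted subunit, fell in H460 on low levels, from 1.25 and 1.12 to 0.381 and 0.696 (log2 -1.11, adjusted p = 0.00624). ATP6V1F, the most abundant V1 subunit on average, was at 184 and 152 against 208 and 172 in RKO, 71.8 and 60.3 against 65.8 and 64.4 in A549, and 56.2 and 49.7 against 48.0 and 44.4 in H460, and was called in no line. Of the other tissue-restricted subunits, ATP6V1B1 was at 1.38 to 2.34 in A549 and 5.35 to 7.35 in H460, with at most 2 counts in RKO. ATP6V1C2 did not exceed 20 counts in any library, ATP6V1G2 stayed at 9 to 47 counts, and ATP6V1G3 and ATP6V0D2 had at most 3.

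The sum of V0 RPKM was 1.52 and 1.41 times that of V1 in H460 normoxia and 0.845 and 0.841 times in hypoxia. This ratio does not depend on how libraries are scaled. In RKO it was 0.751 and 1.02 in normoxia and 0.629 and 0.926 in hypoxia, and in A549 it was 1.61 and 1.27 in normoxia and 1.53 and 1.27 in hypoxia. The conditions overlapped in RKO and A549 and were separate in H460, although within both same-numbered pairs of RKO the ratio was lower in hypoxia. No test was made on the ratio.

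**Figure D5:**
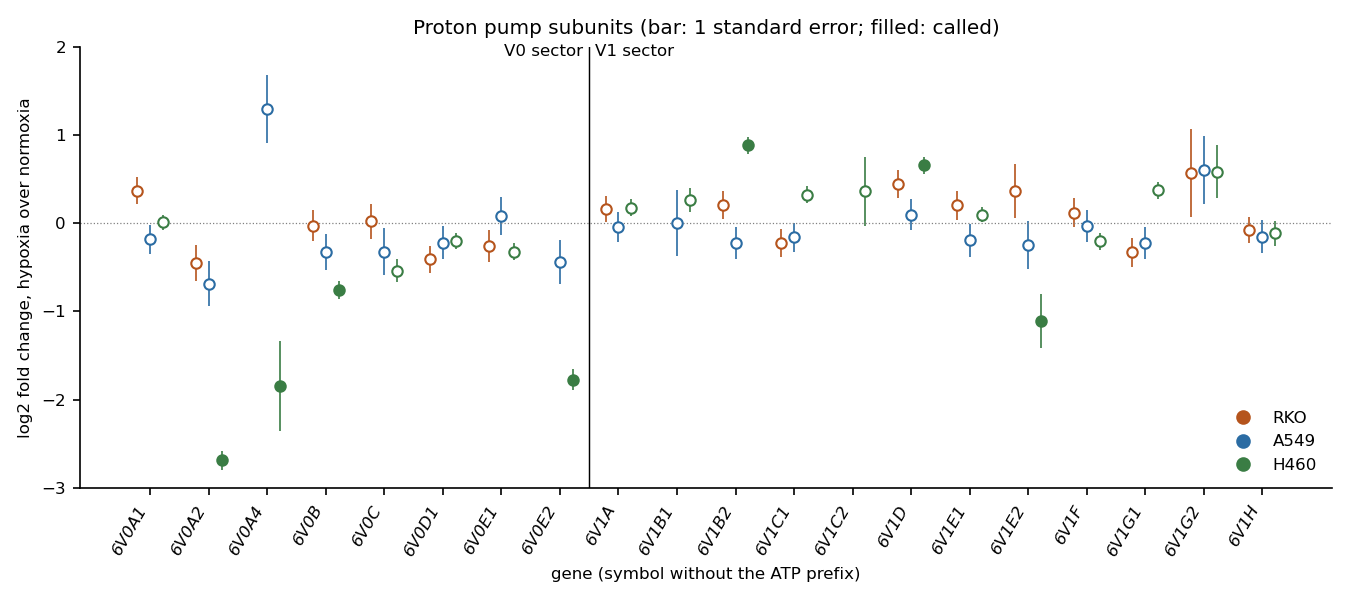
Log2 fold change of each tested pump subunit, hypoxia over normoxia, in the 3 lines, with bars of 1 standard error to each side and filled points for calls; V0 subunits stand left of the vertical line and V1 subunits right of it. ATP6V0A2 at -2.69 and ATP6V0E2 at -1.78 in H460 lie farthest below 0 among subunits with over 100 counts on average, and no point of RKO or A549 is filled.

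Of the LAMP proteins, which line the lysosome membrane, LAMP2 rose in H460 from 16.1 and 14.3 to 23.5 and 22.4 (log2 0.59, SE 0.09, adjusted p = 0.000114). The fold change was at the limit, and the call was lost without normoxia replicate 2 (log2 0.46) or hypoxia replicate 1 (0.57) and under library size alone. In RKO, LAMP2 went from 10.7 and 10.8 to 16.3 and 15.8, a fold change of 1.43 that was under the limit (adjusted p = 0.0164) and passed it under library size alone. LAMP1 was called in no line, with log2 fold changes of -0.16, -0.08 and 0.27 in RKO, A549 and H460. LAMP3, an inducible relative, was called higher in RKO, at 57 and 39 counts in normoxia and 140 and 94 in hypoxia (log2 1.20, SE 0.36, adjusted p = 0.0234), a call lost without normoxia replicate 2 (log2 0.91).

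The next comparison asks whether the hypoxia effect on a gene differed between lines, by an interaction of line and oxygen in a joint fit. It differed for 8 of 72 members between RKO and A549, against 14.6% of all genes tested, for 20 between RKO and H460, against 37.6%, and for 23 between A549 and H460, against 36%. All 8 members that separated RKO from A549 were more positive in RKO: GABARAPL2, ULK3, CTSV, ATG4B, ATG2A, ATP6V0A1, SQSTM1 and TFE3. Of all genes tested, 9.03% were more positive in RKO and 5.53% in A549. Of the 23 that separated A549 from H460, 18 were more positive in H460, among them 11 autophagy core genes and 4 V1 subunits. The other 5 were more positive in A549, among them 3 V0 subunits. Of all genes tested, 17.2% were more positive in H460 and 18.8% in A549. Between RKO and H460 the split was 11 more positive in RKO and 9 in H460, beside 21.1% and 16.4% of all genes tested. With the replicate block the RKO and A549 effects differed for 16 members. The counts also rested on single libraries: between RKO and A549 they were 3 without RKO normoxia replicate 1, 4 without RKO hypoxia replicate 1 and 5 without A549 normoxia replicate 2. Between RKO and H460, leaving out RKO normoxia replicate 1, H460 normoxia replicate 2, H460 hypoxia replicate 1 or H460 hypoxia replicate 2 gave 13, 12, 11 and 12. For A549 and H460 the count was 14 without A549 normoxia replicate 2 or either H460 normoxia replicate, and 10 without H460 hypoxia replicate 1.

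The last comparison is of levels between lines in normoxia, where a call again needed a fold over 1.5. It was made for 42 of 72 members between RKO and A549, against 60.2% of all genes tested, for 49 between RKO and H460, against 61.9%, and for 28 between A549 and H460, against 52.1%. Of 12 cathepsins, 8 were lower in RKO than in A549 and 0 higher, and 8 were lower in RKO than in H460 and 2 higher. Of all genes tested, 34.1% were lower and 26% higher in RKO than in A549, and 34.7% lower and 27.2% higher than in H460. Summed cathepsin RPKM in normoxia was 367 and 416 in RKO but 1035 and 1040 for A549, and in H460 it reached 2242 and 1867. CTSF had 2 to 4 counts per RKO library against 2649 and 2990 in A549 normoxia and 429 and 361 in H460 normoxia. CTSS, a protease best known from antigen-presenting cells, had 1126 to 1606 counts per library in A549 and at most 14 elsewhere. CTSB and CTSL had opposite orders in the lung lines, with CTSB at 217 and 230 in A549 normoxia against 47.7 and 39.6 in H460 (log2 difference 2.34, SE 0.15, adjusted p = 7.80e-09). CTSC was higher in H460 than in either other line (log2 difference -2.20 as A549 minus H460 and -2.14 as RKO minus H460).

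Of 32 autophagy core genes, 8 were higher and 8 lower in RKO than in A549 (25% each, beside 26% and 34.1% of all genes tested). ULK1 was the lowest in RKO, at 6.30 and 8.86 in normoxia, and the highest in H460 (RKO minus H460 -3.56 on the log2 scale, SE 0.39, adjusted p = 1.38e-06). A549 lay between them and below H460 (log2 difference -0.97, adjusted p = 0.0276). SQSTM1 was higher in A549 than in RKO (log2 difference -1.90 as RKO minus A549, adjusted p = 1.75e-07) and than in H460 (0.71, adjusted p = 0.00190). ATP6V1C1, a V1 stalk subunit, was at 55.8 and 47.6 in RKO normoxia against 14.1 and 14.1 in A549 and 7.60 and 8.68 in H460, and differed between each pair of lines. Of 12 V1 subunits, 5 were higher in RKO than in A549 and 3 lower (41.7% and 25%, beside 26% and 34.1% of all genes tested).

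Genes outside the 80 but in the same pathways were counted from further lists. Of 39 other lysosome genes, all tested in each line, 17 were higher and 2 lower in RKO, 0 were called in A549 (2 higher and 5 lower at an unadjusted p under 0.05 in edgeR), and 18 were higher and 5 lower in H460, against the shares of all genes given above (18.8% higher in RKO and 24.6% in H460). The 12 that were higher in both lines were 70.6% of those higher in RKO and 66.7% of those in H460, where over all genes 1067 were higher in both, 44.2% and 30.8%. The lists were chosen with results known, and these shares were not tested. RKO and H460 had list medians of 0.51 and 0.53 (log2 fold change), and A549 one of 0.08. NEU1, a sialidase that works in a complex with CTSA, rose from a mean of 4.41 to 15.1 in RKO and from 1.69 to 3.40 in H460. SLC17A5, the sialic acid exporter of the lysosome, rose from 10.9 to 24.1 in RKO and from 4.93 to 13.2 in H460. IDUA, a glycosaminoglycan hydrolase, rose in RKO from 0.945 to 3.97. GLA, alpha-galactosidase A, fell in H460 from 156 to 51.8, and ACP2 and CTNS, the lysosomal acid phosphatase and cystine exporter, fell there as well.

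Among 27 other autophagy genes, 3 of 25 tested were higher and 2 lower in RKO, 2 of 27 were higher and 0 lower in A549, and 10 of 27 were higher and 1 lower in H460. As shares higher these are 12% in RKO, 7.41% in A549 and 37% in H460, beside 18.8%, 2.22% and 24.6% of all genes. The shares lower are 8% in RKO, 0% in A549 and 3.7% in H460, beside 15.1%, 0.456% and 27.3%. The 2 in A549 were the mitophagy receptors BNIP3, from a mean of 39.6 to 139, and BNIP3L, from 28.3 to 100.2. BNIP3L also rose in RKO (15.6 to 99.5) and H460 (8.42 to 147), and BNIP3 in H460 (54.3 to 514). BNIP3 did not pass the filter in RKO. OPTN, another cargo receptor, rose in RKO and H460. PIK3R4, a subunit of the phosphatidylinositol 3-kinase complex, fell in RKO (15.7 to 8.59) and H460 (6.51 to 3.91), and VPS33A fell in RKO.

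Of the 18 regulators of TFEB and of autophagy initiation, 5 of 16 tested were higher and 0 lower in RKO, 0 of 17 were called in A549 by edgeR (2 higher and 0 lower at an unadjusted p under 0.05), and 10 of 17 were higher and 1 lower in H460. The shares higher were 31.2% in RKO and 58.8% in H460, beside 18.8% and 24.6% of all genes. The shares lower were 0% and 5.88%, beside 15.1% and 27.3%. All 5 of RKO were also higher in H460, where they were 50% of the regulators called higher. Over all genes, those higher in both lines were 44.2% of the genes higher in RKO and 30.8% of those higher in H460. RRAGD, a Rag GTPase of the lysosome surface, rose in H460 from a mean of 0.873 to 9.60 and did not pass the filter in RKO. RRAGA rose in RKO (28 to 68) and H460 (21.0 to 59.4). DDIT4, an inhibitor of mTOR signalling, rose in RKO (18.8 to 80.5) and H460 (563 to 1549). MTOR itself fell in H460 (13.3 to 5.47).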

How the data were processed

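Poly(A)+ RNA libraries were strand-specific. Per the labels and the study's methods, the authors aligned reads to GRCh37/hg19 with TopHat2 2.0.13 and counted them per gene by strand with HTSeq 0.6.1. They deposited raw read counts and RPKM values per gene and library. The deposited RPKM equalled counts scaled by gene length and by the total count of the library (largest relative difference 4.5e-12) and was used in the limma alternatives only. Reads shared by near-identical copies (MAP1LC3B and MAP1LC3B2, GABARAPL1 and GABARAPL3, ATP6V0C and its pseudogenes) make those values uncertain.

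Each line was fitted alone by the quasi-likelihood test of edgeR 4.0.16 under R 4.3.3 (TMM factors, genes over 0.5 CPM in at least 2 libraries, Benjamini-Hochberg adjustment over all genes tested). A gene was called at an adjusted p under 0.1 and a fold change over 1.5, as in the study's own thresholds. The standard error (SE) is the log2 fold change divided by the square root of its F statistic. A joint fit of 12 libraries gave interactions (adjusted p under 0.1) and levels in normoxia. Normalised RPKM used the joint TMM factors. Their log2 ratio, hypoxia over normoxia, differed from that of each line's own fit by -0.06 in RKO and by less in size in the other lines. Counts are divided by the factors, so fold changes moved by as much in the opposite direction. The steps were tested on simulated data. Summed counts and 2 replicates per group set the precision. Same-numbered libraries deviated together (correlation of replicate differences between oxygen conditions 0.335 in RKO, 0.337 in A549 and 0.106 in H460), so the numbers were taken to pair the libraries. That pairing comes from the data, since the labels give only numbers, and the block fits use the same data. The block leaves the fit of a line almost no residual degrees of freedom, so its adjusted p-values lean on spread shared over genes.

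The members and all lists were chosen with earlier results of these data known. Genes were named by list membership, by the 5 greatest changes in each direction and line among called members with a mean of at least 100 counts, by the 3 smallest interaction p-values per pair of lines, by the 2 highest levels per class, and as tissue-restricted pump subunits. The other called members and a few genes described by class or level were named after their values were seen. Alternatives were limma 3.58.1 on log2(RPKM + 0.1) and log2(RPKM + 1), DESeq2 1.42.0, other scalings, filters, thresholds, the replicate block and leaving out each library.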

Additional observations from a re-analysis of the deposited data

Results flagged for a closer look

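The results below were singled out because the hypoxia effect differed between lines by the interaction test in edgeR. Differences are log2 fold changes of the first line minus the second, and the genes listed are those named by the rules in the methods, each once, under its smallest interaction p. The other members enter the counts only. Of 72 members tested, RKO and A549 differed in 8, RKO and H460 in 20 and A549 and H460 in 23.

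For RKO minus A549, the log2 difference was above 0 for GABARAPL2 1.43 (adjusted p = 0.00197), ULK3 1.34 (adjusted p = 0.00229) and TFE3 0.62 (adjusted p = 0.0958).

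For RKO minus H460, the log2 difference was above 0 for LAMP3 2.29 (adjusted p = 0.026), ATP6V0A2 2.28 (adjusted p = 0.000175), CTSV 1.64 (adjusted p = 0.00128) and ATP6V1E2 1.54 (adjusted p = 0.0149). LAMP3 had 13 and 9 counts in H460 normoxia and 5 and 4 in hypoxia, was not tested in H460 alone, and entered the joint fit through RKO. The same sign held for ATG16L2 0.85 (adjusted p = 0.0289), ATP6V0B 0.77 (adjusted p = 0.0304) and CTSL 0.56 (adjusted p = 0.0977). It was below 0 for ATG101 -0.83 (adjusted p = 0.0128), CTSC -0.65 (adjusted p = 0.0927) and ATG3 -0.61 (adjusted p = 0.0416).

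For A549 minus H460, the log2 difference was above 0 for ATP6V0A4 3.14 (adjusted p = 0.00485), ATP6V0E2-AS1 2.55 (adjusted p = 0.00243), ATP6V0E2 1.34 (adjusted p = 0.0131) and ULK2 1.06 (adjusted p = 0.00971). ATP6V0A4 passed the filter in H460 through normoxia alone. It was below 0 for ATP6V1B2 -1.10 (adjusted p = 0.00166), GABARAPL1 -1.07 (adjusted p = 0.0998), SQSTM1 -0.99 (adjusted p = 0.00685) and MAP1LC3B -0.94 (adjusted p = 0.016). The same sign held for ATG9A -0.93 (adjusted p = 0.0078), WIPI1 -0.91 (adjusted p = 0.0609) and GABARAP -0.52 (adjusted p = 0.0943).

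Leaving out 1 library lowered these counts to as few as 3 for RKO with A549 (without RKO normoxia replicate 1), 11 for RKO with H460 and 10 for A549 with H460 (both without H460 hypoxia replicate 1).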

How the results depend on the processing

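Counts of called members changed with the scaling, the fold limit, the tool and the handling of replicates. With library size alone, the fold changes of all genes moved by a median log2 of -0.35 in H460, -0.09 for A549 and 0.08 for RKO. Under it H460 gave 4 members higher and 14 lower, beside 2075 higher and 5756 lower of 14080 genes tested. In H460, limma on log2(RPKM + 0.1) with and without the filter also gave 4 higher and 14 lower each, and limma on log2(RPKM + 1) gave 4 higher. A fold over 2 left 7 higher and 0 lower in RKO and 4 higher and 5 lower in H460. All genes tested gave 1359 higher and 621 lower in RKO and 1904 and 2356 in H460 at that fold. With no minimum fold, H460 had 33 higher and 17 lower, beside 5345 and 5585 of all genes tested. In RKO, limma on log2(RPKM + 0.1) without a filter left 1 lower. In A549 the members called higher numbered 2 in DESeq2, 2 without a filter, 3 in the joint fit and 0 with library size alone, with each limma alternative and at an adjusted p under 0.05. Those called lower numbered 3 in DESeq2, 3 without a filter and 4 in the joint fit.

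With the replicate block, which uses the pairing of replicate numbers, A549 had 4 higher and 5 lower, and 16 members differed between RKO and A549. The block also ended the calls of ATG101 in RKO (log2 -0.58) and ULK2 in H460 (log2 -0.58), and among the named genes it changed no call beyond these and those given for A549. At an adjusted p under 0.05, 5 members differed between RKO and A549 and 14 between A549 and H460.

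Leaving out each library in turn gave 10 to 13 higher and 2 to 3 lower in RKO, 0 to 6 higher and 0 to 5 lower in A549, and 12 to 19 higher and 7 to 8 lower in H460. Members with a different effect then numbered 3 to 11 between RKO and A549, 11 to 20 between RKO and H460, and 10 to 27 between A549 and H460. The arm left with 1 library was taken to vary like the other groups. In A549 the number of all genes called also changed with the library left out. Of 1740 values of named genes under all alternatives, 1586 stayed on the same side of the threshold, 87 lost a call and 67 gained one. No value called in the main fit or in the alternative changed sign. Changes of sign in values uncalled in both were not counted. The cause of these changes was not tested. With 2 replicates per group, the median SE of a log2 fold change was 0.11 in H460, 0.18 for RKO and 0.22 for A549.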
